A study of Mus musculus with 149 samples.

Results

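Scara5 is a scavenger receptor of class A, and its expression was followed through lung arrays of 76 OVA-sensitized and 73 naive balb/c mice. It was represented by 1 probe set, the only one whose annotation names this gene alone, and it was 1 of the 13494 genes measured. The gene lies on chromosome 14, 65666403 to 65764826, in GRCm38.p6. Scara5 was chosen from results of these same arrays, on its levels across the groups and its course with Adipoq, so its own differences are given as a description, each with its standard error (SE) and without a test.

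The study compared 20 groups of 6 to 8 mice. The 76 OVA arrays came from OVA-sensitized mice and the 73 naive arrays from mice that were not sensitized. Mice of both kinds were challenged with saline, with buffer alone (0.1% MSA), or with TSLP at 150, 500 or 1500 ng, and lungs were taken 6 or 24 h later. TSLP is a cytokine of barrier epithelia that promotes type 2 inflammation. No group carries a modified allele, and each array is 1 animal. Because whole lung was measured, fewer cells of a type and less RNA per cell cannot be told apart.

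The SCARA5 protein sits in the cell membrane and, in mice, binds ferritin, the iron storage protein, and carries it into the cell, a route of iron uptake that does not use transferrin. The class also holds Marco, Msr1, Colec12 and Scara3, of which Marco and Msr1 are best known as receptors of macrophages. Scara5 transcript is known from fibroblasts, including those of the adventitia, the loose connective tissue around vessels and airways.

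All values are RMA log2 expression, on which a difference of 1 is a 2-fold change. The lung markers Sftpc, Sftpa1, Scgb1a1 and Ager were at 13.72 or above on every array. The other lung markers varied more, Cldn18 from 12.41 to 13.46, Pecam1 from 9.39 to 11.13 and Cdh5 from 9.60 to 11.22. Keratins of gullet epithelium stood out on 6 arrays, and the fat gene Adipoq was more than 2 above its median over all arrays on 14, of which 4 were among the 8 OVA buffer arrays at 24 h. Several differences of Scara5 that these arrays touch are given with and without them.

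The group means of Scara5 were higher and closer together in naive mice than in OVA mice. The 10 naive group means lay between 9.26 and 9.86, a range of 0.60. The 10 OVA group means lay between 7.12 and 9.35, a range of 2.23, and 9 of them were below the lowest naive mean. Of the single arrays, 27 OVA arrays and 1 naive array were below 8.

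**Figure D1:**
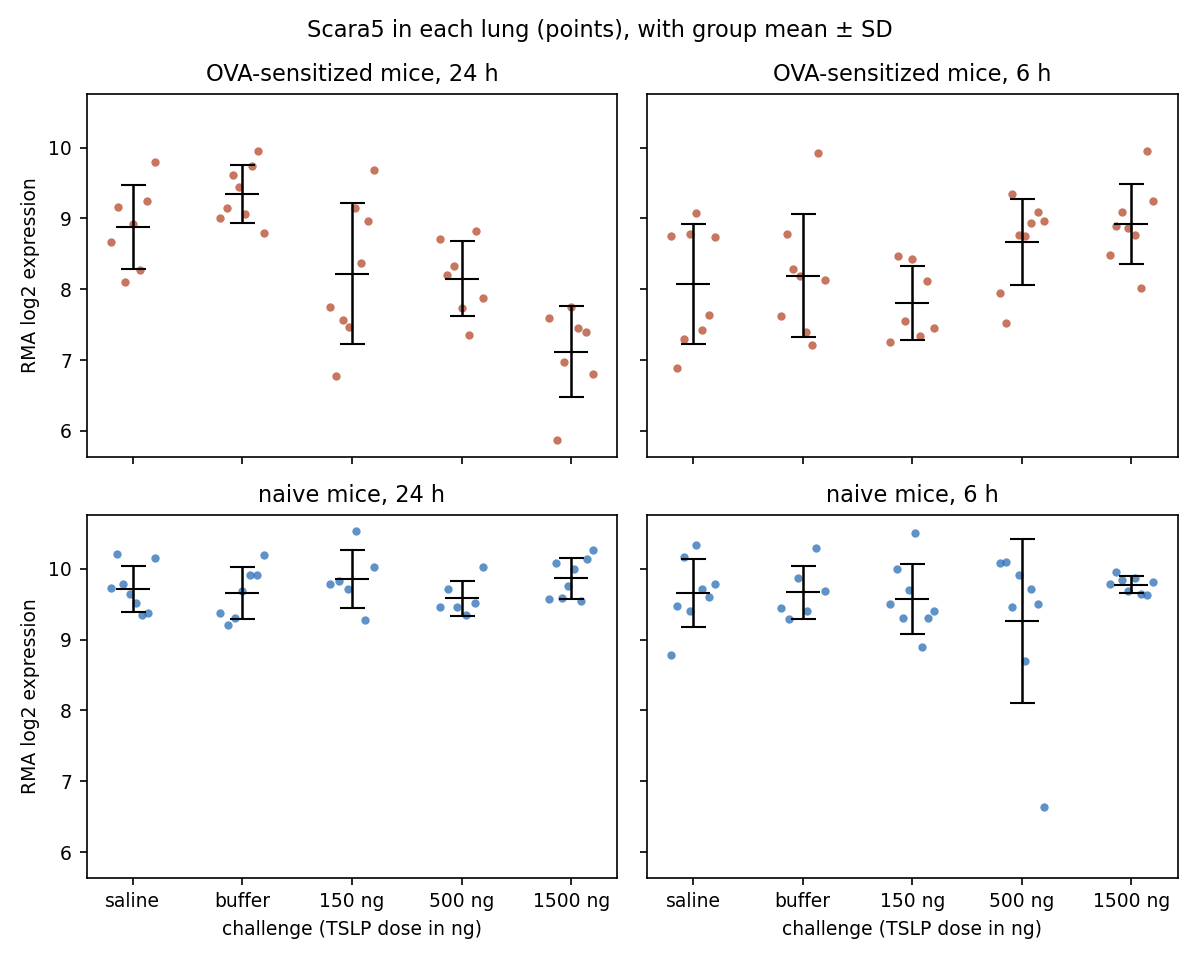
Scara5 expression (RMA log2) in each lung (points) by challenge, with the group mean and SD (black bars), OVA mice in the upper panels and naive mice in the lower ones, 24 h on the left and 6 h on the right. At 24 h the 7 OVA lungs given 1500 ng TSLP lie between 5.87 and 7.75, below all 8 OVA buffer lungs, while the naive groups stay near their controls.

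The lowest group was OVA mice 24 h after 1500 ng TSLP, at 7.12 ± 0.64 (SD, n = 7). The next was OVA mice 6 h after 150 ng TSLP, at 7.80 ± 0.52 (n = 7), a step of 0.68 and the only one of the 19 steps between neighbouring means that was larger than the wider SD of its pair. After it came OVA saline at 6 h (8.08 ± 0.85, n = 8), OVA 500 ng at 24 h (8.14 ± 0.53, n = 7), OVA buffer at 6 h (8.19 ± 0.87, n = 8), OVA 150 ng at 24 h (8.21 ± 1.0, n = 8) and OVA 500 ng at 6 h (8.66 ± 0.61, n = 8). From 7.80 to 8.66, neighbouring means of these 6 groups did not differ beyond their spread.

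The upper part of the order began with OVA saline at 24 h (8.88 ± 0.59, n = 7) and OVA 1500 ng at 6 h (8.91 ± 0.56, n = 8), followed by naive 500 ng at 6 h (9.26 ± 1.15, n = 8) and OVA buffer at 24 h (9.35 ± 0.40, n = 8). The other 9 naive groups stood above every OVA mean. They were 150 ng at 6 h (9.58 ± 0.50, n = 8), 500 ng at 24 h (9.58 ± 0.25, n = 6), buffer at 24 h (9.66 ± 0.37, n = 7), saline at 6 h (9.66 ± 0.48, n = 8), buffer at 6 h (9.67 ± 0.37, n = 6), saline at 24 h (9.72 ± 0.32, n = 8), 1500 ng at 6 h (9.78 ± 0.12, n = 8), 150 ng at 24 h (9.86 ± 0.41, n = 6) and 1500 ng at 24 h (9.86 ± 0.29, n = 8).

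In OVA mice at 24 h, Scara5 was lower at every TSLP dose than in buffer lungs, and lowest at the highest dose. The 7 arrays at 1500 ng had 7.59, 5.87, 6.98, 7.75, 7.45, 7.40 and 6.80 (replicates 1 to 6 and 8), and the 8 buffer arrays ranged from 8.79 to 9.95 with a median of 9.30. The groups did not overlap. The difference was -2.23 (SE 0.31), a level 4.68-fold lower at 1500 ng.

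The lower doses overlapped with buffer. At 150 ng the arrays ranged from 6.77 to 9.69 with a median of 8.06, and the difference from buffer was -1.13 (SE 0.30). At 500 ng they ranged from 7.35 to 8.82 with a median of 8.20, and the difference was -1.20 (SE 0.31). Thus 5 of 8 arrays at 150 ng, 6 of 7 at 500 ng and 7 of 7 at 1500 ng were below the lowest buffer array.

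Saline gave a second control, with smaller differences. The 7 OVA saline arrays at 24 h ranged from 8.10 to 9.80 with a median of 8.92, and all 7 arrays at 1500 ng were below the lowest of them. The difference from saline was -0.66 (SE 0.31) at 150 ng, -0.73 (SE 0.32) at 500 ng and -1.76 (SE 0.32) at 1500 ng, which is 3.38-fold lower. Buffer itself was 0.47 above saline (SE 0.31), within the spread of the arrays. The comparisons at the 3 doses share their control arrays.

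At 6 h the OVA groups did not show this order. Scara5 at 1500 ng ranged from 8.02 to 9.95 with a median of 8.88, against 7.21 to 9.92 with a median of 8.15 in buffer lungs and 6.89 to 9.07 with a median of 8.19 in saline lungs. The difference was 0.72 (SE 0.30) from buffer and 0.84 (SE 0.30) from saline, with overlapping groups. The difference from buffer was -0.39 (SE 0.31) at 150 ng and 0.47 (SE 0.30) at 500 ng. The differences from buffer depend on buffer replicate 7, a gullet keratin array with Scara5 at 9.92. Without it they were -0.14 at 150 ng, 0.72 at 500 ng and 0.97 at 1500 ng. Without all gullet keratin arrays the difference at 1500 ng was 0.82 from buffer and 0.69 from saline.

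The 6 h groups also differed in a sign of RNA quality. The gap between the 3′ and the 5′ probe sets of beta-actin, which widens as RNA breaks, averaged 1.26 ± 0.12 at 1500 ng and 2.57 ± 0.26 in buffer lungs (SD, n = 8 each). In saline lungs the gap averaged 2.45 ± 0.22 (SD, n = 8). With this gap as a covariate the 6 h difference of Scara5 at 1500 ng was 0.45 from buffer and 0.59 from saline. The part of the gap in those differences was not tested. At 24 h the gap differed by 0.32 between 1500 ng and buffer, and the Scara5 difference with it as a covariate was -2.16.

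Between the time points Scara5 moved in opposite directions in OVA mice. The later lungs minus the earlier ones gave -1.79 (SE 0.31) at 1500 ng, without overlap, and -0.52 (SE 0.31) at 500 ng. It was higher by 0.42 (SE 0.31) at 150 ng, by 1.16 (SE 0.30) in buffer lungs and by 0.80 (SE 0.31) in saline lungs. In buffer lungs Adipoq was 2.43 higher and the beta-actin gap differed by -1.30 at the later time, and the Scara5 difference was 0.44 with Adipoq and 0.88 with the gap as a covariate. It was 0.81 without the arrays high in Adipoq and 1.40 without the gullet keratin arrays. In saline lungs the gap differed by -1.18 and Adipoq by 0.53, and at 1500 ng Adipoq differed by -2.43 and Scara5 by -1.08 with it as a covariate. The part of these measures in the differences between times was not tested. The 5 matching differences in naive mice lay between -0.01 and 0.32.

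In naive mice the 6 differences between TSLP and buffer lay between -0.40 and 0.21 (SE 0.31 to 0.34), and all groups overlapped. The widest, at 500 ng and 6 h, came from replicate 8, which had Scara5 at 6.64 where the next lowest array of its group had 8.70. Without that array the difference was -0.03. The difference at 1500 ng was 0.11 (SE 0.33) at 6 h and 0.21 (SE 0.31) at 24 h. Without the gullet keratin arrays these were 0.32 and 0.30. The 6 differences from saline lay between -0.39 and 0.14 (SE 0.30 to 0.33), with all groups overlapping. With Adipoq as a covariate the 6 ranged from -0.24 to 0.11 from buffer and from -0.51 to -0.16 from saline. The effect of 1500 ng against buffer at 24 h in OVA mice minus that in naive mice was -2.44 (SE 0.44). It was -2.05 (SE 0.51) without the arrays high in Adipoq and -1.20 (SE 0.33) with Adipoq as a covariate.

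**Figure D2:**
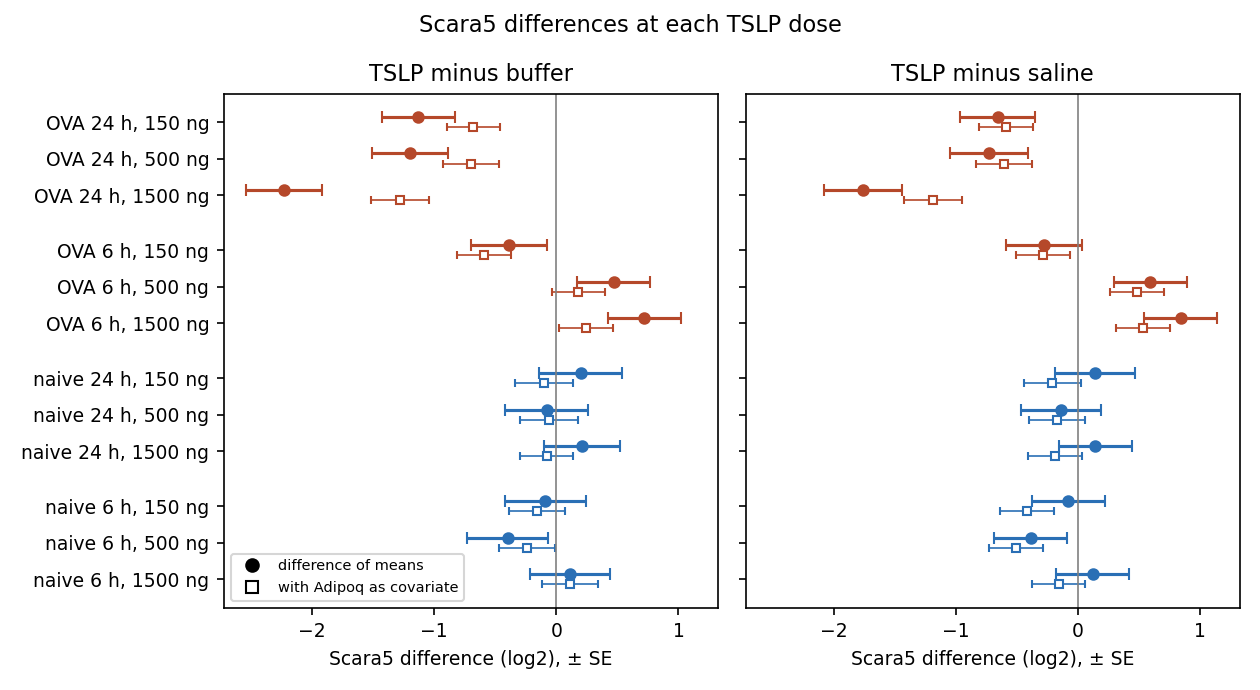
Scara5 differences (log2, first group minus second) between each TSLP dose and buffer (left) or saline (right), with SE, for OVA mice (upper rows) and naive mice (lower rows). Filled points are differences of group means and open squares the same with Adipoq as a covariate. At 24 h and 1500 ng in OVA mice the difference from buffer is -2.23, or -1.28 with the covariate.

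Sensitization went with lower Scara5 in every matched pair of groups. All 10 differences, OVA minus naive at the same challenge and time, were below 0, from -2.75 to -0.31 (SE 0.30 to 0.34), and 3 of them were without overlap. With saline at 6 h, Scara5 ranged from 6.89 to 9.07 with a median of 8.19 in OVA lungs, against 8.78 to 10.34 with a median of 9.66 in naive lungs. The difference was -1.58 (SE 0.30), 3-fold lower, and 7 of the 8 OVA arrays were below the lowest naive array.

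With saline at 24 h the difference was -0.84 (SE 0.31), and 6 of 7 OVA arrays were below the lowest naive array. With buffer it was -1.48 (SE 0.33) at the earlier time and -0.31 (SE 0.31) at the later one. In the earlier buffer comparison Adipoq differed by -1.94. The Scara5 difference there was -0.90 (SE 0.24) with Adipoq as a covariate and -1.35 (SE 0.34) without the arrays high in it. In the later buffer comparison 4 of the 8 OVA arrays were high in Adipoq. The difference of Scara5 was -0.61 (SE 0.39) without high Adipoq arrays, -0.22 without gullet keratin arrays and -0.51 (SE 0.22) with Adipoq as a covariate. The widest difference, -2.75 (SE 0.31), a level 6.71-fold lower, was at 1500 ng and 24 h. Adipoq differed by -3.51 there, and with it as a covariate the Scara5 difference was -1.71 (SE 0.24), 3.26-fold lower. It was -2.66 (SE 0.33) without the arrays high in Adipoq.

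Adipoq, which encodes the fat cell hormone adiponectin, varied with Scara5 from array to array. Over all arrays of both kinds Pearson's r was 0.73 and Spearman's rho 0.73, and with each group's mean subtracted they were 0.70 and 0.67. The coefficient was above 0 within each of the 20 groups, from 0.30 in OVA 1500 ng at 6 h to 0.95 in naive 500 ng at 6 h. Without the 14 arrays high in Adipoq the centred r was 0.67 (n = 135), and without the 2 arrays farthest from the median of Adipoq it was 0.65. The arrays share their chip and the RMA normalization, and these coefficients are descriptions.

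Within groups, Scara5 was 0.30 higher for each step of 1 log2 in Adipoq. Its SD within groups was 0.61, and 0.43 about that line, so that 49.5% of the variance within groups was shared. Adipoq itself swung more widely, with an SD within groups of 1.45.

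**Figure D3:**
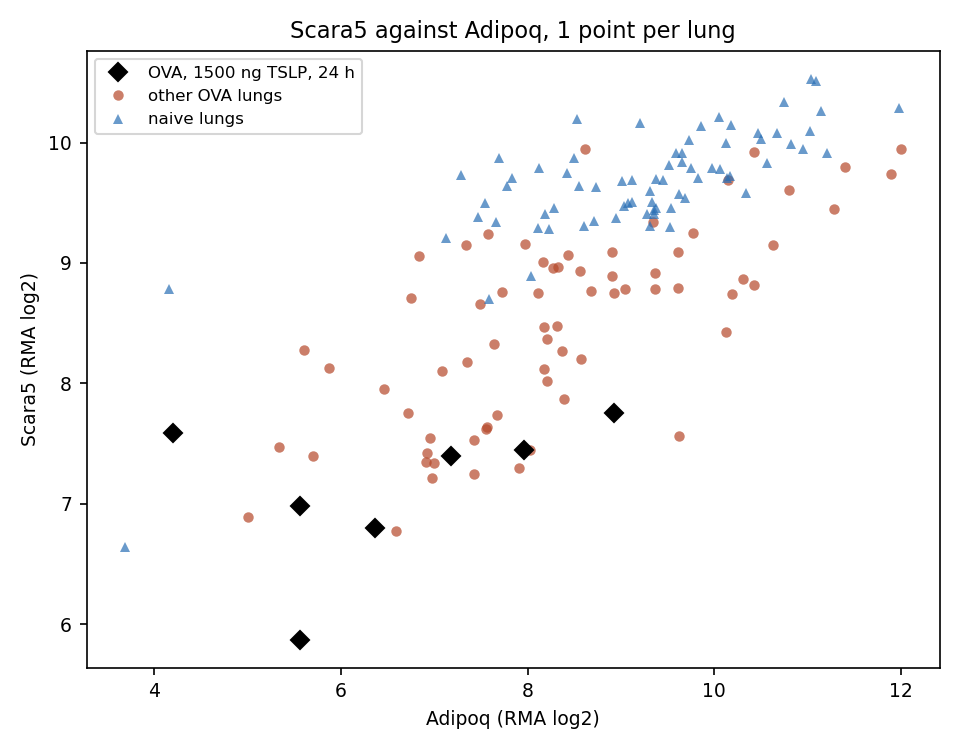
Scara5 against Adipoq (both RMA log2), 1 point per lung. Black diamonds are OVA lungs 24 h after 1500 ng TSLP, red circles the other OVA lungs and blue triangles naive lungs. The genes vary together (r = 0.73 over all lungs), and the black diamonds lie at a Scara5 level of 7.75 or lower.

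Adipoq was lower in the same OVA group as Scara5. Since its course was among the values on which Scara5 was chosen, its differences are given without a test too. At 24 h it averaged 6.54 ± 1.61 at 1500 ng (n = 7), against 9.74 ± 2.07 in buffer lungs (n = 8) and 8.46 ± 1.49 in saline lungs (n = 7). The difference of Adipoq was -3.20 (SE 0.74) from buffer, with 7 of 7 arrays below the buffer mean, and -1.93 (SE 0.76) from saline, with 6 of 7 below the saline mean.

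Holding Adipoq as a covariate made the Scara5 difference smaller and kept its direction. At 1500 ng and 24 h in OVA mice it was -1.28 (SE 0.24) from buffer, or 2.43-fold lower, and -1.19 (SE 0.24) from saline, or 2.28-fold lower. Without the arrays high in Adipoq it was -1.88 (SE 0.37) and -1.61 (SE 0.33). With the covariate, 150 and 500 ng gave -0.68 (SE 0.22) and -0.70 (SE 0.23) from buffer. Without the arrays high in Adipoq they gave -0.79 (SE 0.37) and -0.86 (SE 0.37).

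The difference between OVA and naive mice given saline at 6 h stood beside a smaller difference in Adipoq. Adipoq averaged 7.93 ± 1.56 in OVA lungs and 8.33 ± 1.92 in naive lungs (SD, n = 8 each), a difference of -0.39 (SE 0.72). The Scara5 difference was -1.47 (SE 0.22) with Adipoq as a covariate, against -1.58 without it. At 24 h it was -0.71 (SE 0.22) with the covariate. Over the 10 OVA and naive pairs the covariate left all differences below 0, from -1.71 to -0.48.

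In the other direction, the 6 h differences at 1500 ng in OVA mice shrank with Adipoq as a covariate. Adipoq was 1.65 above buffer there (SE 0.72), and the Scara5 difference from buffer was 0.24 (SE 0.22) with the covariate, against 0.72 without it. Against saline Adipoq differed by 1.03, and Scara5 by 0.53 (SE 0.22) with the covariate, against 0.84 without it. For buffer against saline at 24 h in OVA mice, Scara5 differed by 0.47 without and 0.09 (SE 0.22) with the covariate, where Adipoq differed by 1.28.

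The gene whose pattern was most like that of Scara5 was Dcn, which encodes decorin, a proteoglycan of the collagen matrix made by fibroblasts. Likeness was the Pearson correlation, over the 20 group means and over all arrays with group means subtracted, among 12797 genes. Dcn led both orders, with 0.97 over group means and 0.85 within groups. Adipoq ranked 139 over group means, with 0.88, and 7 within groups, with 0.70.

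Over group means the next were Omd (0.95), which encodes osteomodulin, another small proteoglycan, then Mpp5 (0.94), Sun1 (0.94), Serping1 (0.94) and Serpinf1 (0.94). Serping1 encodes the inhibitor of complement C1, and Serpinf1 encodes PEDF, a secreted serpin made by fibroblasts and fat. Within groups Dcn was followed by Apod (0.75), which encodes apolipoprotein D, then Car3 (0.73), Cyp2e1 (0.73), Serpinf1 (0.72) and Cidec (0.72). Car3 and Cidec are genes of fat cells. Dcn and Serpinf1 stood in both lists of 6.

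**Figure D4:**
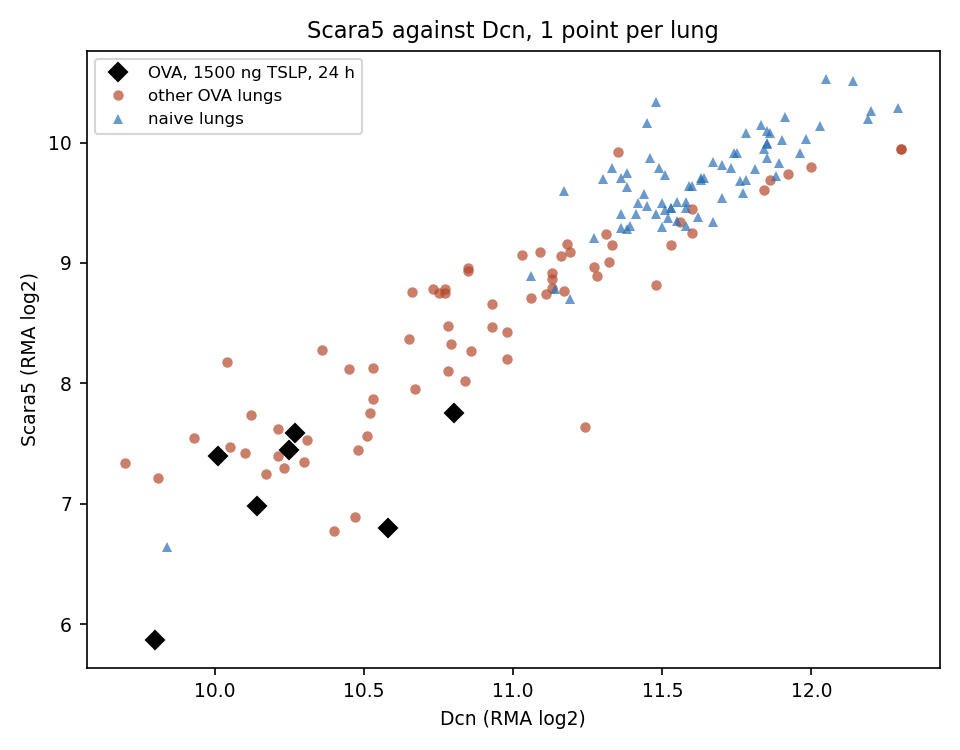
Scara5 against Dcn (both RMA log2), 1 point per lung, with the colours and shapes of the Adipoq plot. Both genes lie low in OVA lungs 24 h after 1500 ng TSLP (Dcn from 9.80 to 10.80) and high in naive lungs (r = 0.92 over all lungs).

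Marker lists were set beside Scara5 by their correlation with it within groups, where 160 of 13493 other genes (1.19%) were above 0.5. The median over the 8 measured fat genes was 0.67, and 5 of them were above 0.5. Over 11 adventitial fibroblast markers it was 0.23, with 3 above 0.5, and over 7 alveolar fibroblast markers 0.23, with 0. The fat genes include Adipoq, chosen with Scara5, and Car3 and Cidec, and the adventitial markers include Dcn and Serpinf1. These were chosen or named by their likeness to Scara5, so the counts and medians of both lists follow in part from that choice. Heart and skeletal muscle markers had a median of 0.45, with 2 of 6 above 0.5, and gullet markers 0.34, with 0 of 5. For 25 iron genes the median was 0.02, and over all genes it was -0.01. Over the 20 group means the medians were 0.79 for the alveolar fibroblast markers, 0.71 for the fat genes, 0.67 for the adventitial markers and 0.16 for the iron genes, against 0.02 for all genes.

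Dcn and most other fibroblast markers, adventitial and alveolar, were lower than in buffer lungs in the OVA group in which Scara5 was lowest. Dcn and Serpinf1 stood out by their likeness to Scara5 over these same arrays, so their differences follow in part from that choice and are given without a test, and the counts of adventitial markers include them. There Dcn averaged 10.26 ± 0.34 (n = 7), against 11.60 ± 0.41 in buffer lungs (n = 8), a difference of -1.33 (SE 0.20), with 7 of 7 arrays below the buffer mean. Of 11 measured adventitial markers 7 fell and 1 rose. Over all genes 17.5% fell and 21% rose in this comparison. The median of the adventitial list was -0.28, and that of all genes 0.01. Of 7 alveolar fibroblast markers 4 fell and 0 rose against buffer, with a median of -0.26.

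Pi16, a surface protein that marks adventitial fibroblasts, fell by 0.60 (adjusted p = 0.00152 in limma) and Dpp4 by 0.20 (adjusted p = 0.00674). Serpinf1 differed by -0.56. Clec3b, at -0.23 (adjusted p = 0.155), and Cd34, at -0.01 (adjusted p = 0.954), did not pass. Col14a1, Mfap5 and Pdgfra also fell and Gsn rose, by 0.06, a set chosen after its values were seen. With Adipoq as a covariate 5 of 11 fell and 0 rose, and without the arrays high in Adipoq 4 fell and 0 rose. With the covariate Dcn was at -0.74, and Pi16 was at -0.24 and did not pass. Dpp4 did not pass with the beta-actin gap as a covariate (-0.12) or without the arrays high in Adipoq (-0.16).

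Against saline at 24 h, 5 of the 11 adventitial markers fell and 1 rose, where 13.3% of all genes fell and 15.8% rose. Without the arrays high in Adipoq 4 fell and 1 rose. Of the 7 alveolar fibroblast markers 1 fell and 0 rose against saline, with a median of 0.02. Pi16 fell by 0.69 (limma adjusted p = 0.000629). Dcn differed by -0.91, and Serpinf1 by -0.37, or by -0.21 with Adipoq as a covariate. In naive mice at 24 h, with 1500 ng against buffer, 0 of 11 adventitial, 0 of 8 fat and 0 of 25 iron genes passed, where 0.608% of all genes rose and 0.371% fell. Dcn differed by 0.06 there. The effect on Dcn in OVA mice minus that in naive mice was -1.39 (SE 0.29), and 2.5% of all genes were lower and 1.92% higher by this difference of effects.

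At 6 h in OVA mice, 6 adventitial markers rose and 1 fell at 1500 ng against buffer. Of all genes 24.8% rose and 35.9% fell there, in the comparison in which the beta-actin gap differed by -1.31. Pi16 rose by 0.72 (limma adjusted p = 2.65e-05), and Dcn was higher by 0.88 (SE 0.19), on the same side as the Scara5 difference. In naive mice at 6 h Pi16 averaged 11.05 ± 0.18 at 1500 ng, 10.67 ± 0.14 with buffer and 10.30 ± 0.39 with saline (SD). Scara5 at 1500 ng differed there by 0.11 (SE 0.33) from buffer and 0.12 (SE 0.30) from saline.

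Fibroblast markers were also lower in OVA mice given saline. At 6 h, OVA against naive, 4 of 11 adventitial and 6 of 7 alveolar fibroblast markers fell, and 0 rose on both lists, while 0 of 8 fat genes passed. Of all genes 12.6% fell and 10.9% rose. Dcn averaged 10.71 ± 0.41 in OVA lungs and 11.35 ± 0.13 in naive lungs (SD, n = 8 each), a difference of -0.63 (SE 0.19), with 8 of 8 OVA arrays below the naive mean. Pi16 fell by 0.70 (limma adjusted p = 0.000306), and Serpinf1 differed by -0.45.

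At 24 h with saline, 4 adventitial markers fell and 1 rose, and 7 of 7 alveolar fibroblast markers fell, where 16.4% of all genes fell and 14% rose. Dcn differed by -0.46. The alveolar markers include Slc7a10, an amino acid transporter, at -0.80 (limma adjusted p = 4.09e-06) and Itga8, an integrin chain, at -0.39 (adjusted p = 0.00266). At 1500 ng and 24 h, OVA against naive, 6 of 11 adventitial, 6 of 7 alveolar fibroblast and 6 of 8 fat genes fell and 0 rose, where 22.8% of all genes fell and 19.7% rose.

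Fat genes fell with Scara5 against buffer and, Adipoq left aside, did not pass against saline. In OVA mice given 1500 ng, 5 of 8 fell and 0 rose against buffer at 24 h, where 17.5% of all genes fell and 21% rose. Counts of fat genes include Adipoq, chosen with Scara5, and Car3 and Cidec, which stood out by their likeness to it. Their own differences are given without a test. Car3, a carbonic anhydrase of fat and muscle, differed by -2.64, and Cidec, a lipid droplet protein, by -1.97. The others that fell were Retn (resistin, -1.86, limma adjusted p = 0.000693) and Plin4 (a lipid droplet coat protein, -0.77, adjusted p = 0.0256). Lipe, a lipase of fat cells, was at -0.27 (adjusted p = 0.156). Without the arrays high in Adipoq, which takes out arrays by the level of a member, 1 of the 8 fell. With Adipoq left aside, no fat gene passed against saline. Adipoq differed there by -1.86 with the beta-actin gap as a covariate and by -1.89 with the replicate block.

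The mean of the 8 fat genes ranged from 6.86 to 8.67 with a median of 7.57 at 1500 ng, against 7.79 to 10.89 with a median of 9.22 in buffer lungs and 7.74 to 10.47 with a median of 8.06 in saline lungs. The groups overlapped. The part of fat beside the lung in the Scara5 values was not tested beyond the covariate and the arrays left out above.

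**Figure D5:**
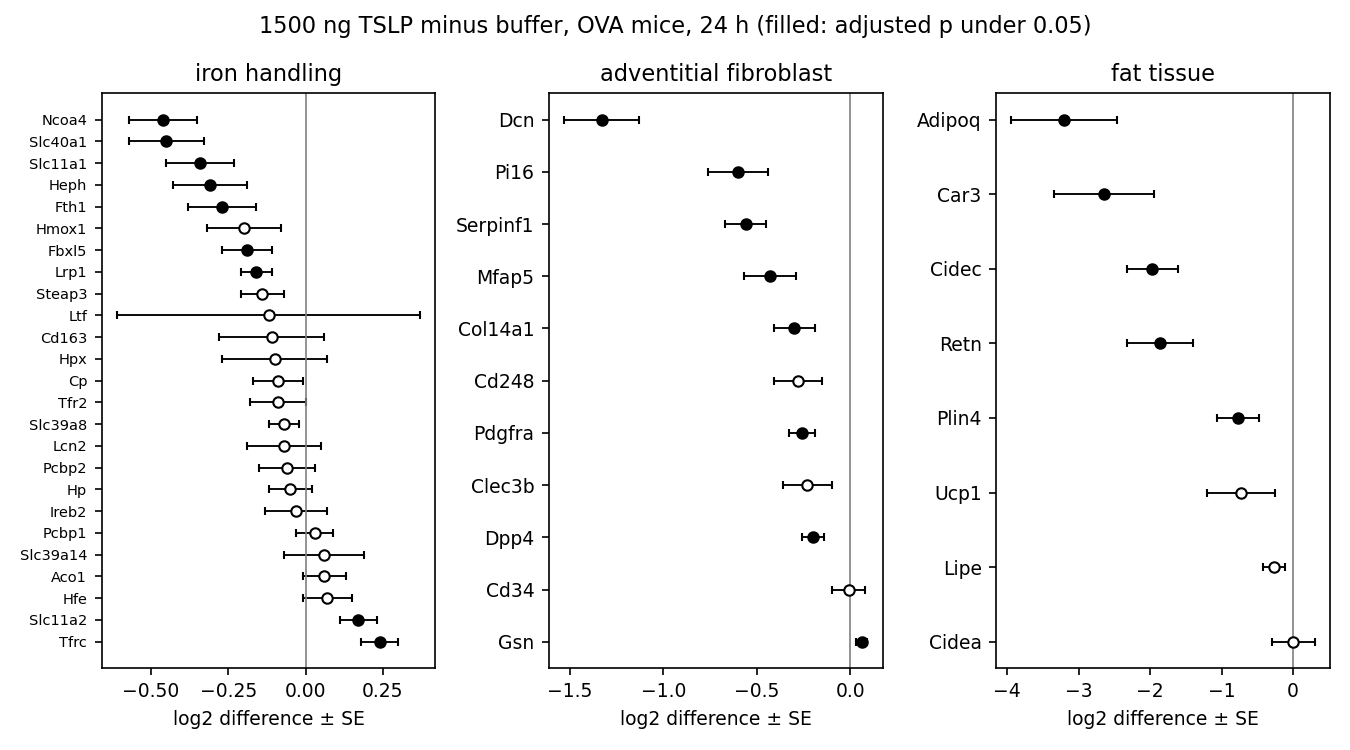
Log2 differences with SE between 1500 ng TSLP and buffer in OVA mice at 24 h, for the measured genes of 3 lists, with filled points where the adjusted p is under 0.05. Of 25 iron genes 2 rose and 7 fell, of 11 adventitial markers 1 rose and 7 fell, and of 8 fat genes 5 fell. The counts include Adipoq, chosen with Scara5, and Dcn, Serpinf1, Car3 and Cidec, which stood out by likeness to it. The axes of the panels differ in scale.

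Genes of iron handling that changed did so by less than Scara5 differed. Of 25 measured iron genes, 2 rose and 7 fell at 1500 ng and 24 h in OVA mice against buffer, with a list median of -0.09, where 21% of all genes rose and 17.5% fell. With Adipoq as a covariate 2 rose and 5 fell, and without the arrays high in Adipoq 1 rose and 3 fell. Against saline 2 rose and 3 fell, where 15.8% of all genes rose and 13.3% fell. Tfrc, the transferrin receptor, rose by 0.24 (SE 0.06, limma adjusted p = 0.000894) against buffer and by 0.19 (adjusted p = 0.013) against saline, with 7 of 7 arrays above each control mean.

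Ncoa4, which hands ferritin over for breakdown in lysosomes, fell by 0.46 (limma adjusted p = 0.00029) against buffer and by 0.36 (adjusted p = 0.0092) against saline, where it did not pass with the beta-actin gap as a covariate (-0.23). Fth1, the heavy chain of ferritin, averaged 13.31 ± 0.15 at 1500 ng and 13.58 ± 0.06 in buffer lungs. It fell by 0.27 (adjusted p = 0.0431) against buffer, a call that was lost with the beta-actin gap (-0.05) or Adipoq (-0.21) as a covariate and without the arrays high in Adipoq (-0.23). Against saline it was at -0.22 (adjusted p = 0.129).

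Ireb2, which senses iron and binds ferritin messenger RNA, was at -0.03 (limma adjusted p = 0.834) against buffer, Slc39a8, a metal importer, at -0.07 (adjusted p = 0.28) and Pcbp1, an iron chaperone, at 0.03 (adjusted p = 0.775). Slc40a1, the iron exporter ferroportin, fell by 0.45 (adjusted p = 0.00154) against buffer and by 0.35 (adjusted p = 0.0238) against saline, and Slc11a1, a metal transporter of phagosomes, fell by 0.34 (adjusted p = 0.00856) and by 0.48 (adjusted p = 0.000429). Without the arrays high in Adipoq, Slc11a1 did not pass against buffer (-0.25). Slc40a1 and Slc11a1 were chosen after their values were seen.

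Slc40a1 was lower with sensitization as well. With saline it fell by 0.42 at 6 h (limma adjusted p = 0.00412) and by 0.42 at 24 h (adjusted p = 0.00339), OVA against naive. Tfrc rose by 0.22 (adjusted p = 0.004) and by 0.16 (adjusted p = 0.0382), and Fth1 was at 0.02 (adjusted p = 0.91) and -0.02 (adjusted p = 0.91).

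The other class A scavenger receptors varied in their likeness to Scara5. Within groups their correlations with it lay between -0.11 and 0.49 (4 genes, over all 20 groups), with a median of 0.17. The median over all genes was -0.01, and 1.19% of all genes were above 0.5. At 1500 ng and 24 h in OVA mice Marco fell by 0.47 (SE 0.17, limma adjusted p = 0.0238) and Scara3 by 0.45 (SE 0.17, adjusted p = 0.0296) against buffer. Neither passed against saline, where Marco was at 0.03 (adjusted p = 0.921) and Scara3 at -0.43 (adjusted p = 0.0586), and neither passed with Adipoq as a covariate.

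Msr1, at 0.06 (limma adjusted p = 0.822), and Colec12, at 0.04 (adjusted p = 0.798), did not pass against buffer. Msr1 rose in OVA mice against naive mice with saline at 24 h, by 0.49 (SE 0.18, adjusted p = 0.0225), where the Scara5 difference was -0.84.

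Genes of the type 2 response correlated negatively with Scara5 on the median, at -0.80 over the 20 group means and at -0.31 within groups (8 genes). At 1500 ng and 24 h in OVA mice 6 of 8 rose and 0 fell against buffer, where 21% of all genes rose and 17.5% fell, among them Il13, a cytokine of type 2 immunity, by 1.24 (limma adjusted p = 0.000925), Ccl11, the eosinophil chemokine eotaxin, by 1.08 (adjusted p = 0.00525) and Mcpt8, a basophil protease, by 0.87 (adjusted p = 0.000765). Against saline 1 of 8 passed, Mcpt8, by 0.71 (adjusted p = 0.0107), and Il13 was at 0.29 (adjusted p = 0.544), where 15.8% of all genes rose and 13.3% fell. At 6 h in OVA mice 6 of the 8 rose and 0 fell at 1500 ng against buffer as well, in the comparison in which Scara5 was 0.72 higher and in which 24.8% of all genes rose and 35.9% fell.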

How the data were processed

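Lungs of 76 OVA and 73 naive balb/c mice were hybridized to 3′ expression arrays, 1 animal per array. The authors deposited 1 table of log2 values for 26166 probe sets, made with RMA per the submitters' processing notes (version not given in the sources used here). Values ran from 2.955 to 15.11, with array medians from 8.968 to 9.164. Of the probe sets, 22892 name 1 gene, 260 several and 3014 none. Each gene was read from its probe set of highest mean among those naming it alone. The number of arrays limits the precision.

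Group means of 20 groups were fitted across all 13494 genes with limma 3.58.1 in R 4.3.3 (lmFit and eBayes), with two-sided tests and Benjamini-Hochberg adjustment at 0.05 over all genes. The fit was tested on simulated data. Fitted differences with SE are given for Scara5. Alternatives were quantile normalization, omission of arrays, covariates, a replicate block, a filter on dim genes, 2-group fits and medians.

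Gene and marker lists, and Scara5 itself, were chosen with earlier results of these data known. Genes named were the 6 of each list with the smallest p over the 8 comparisons of 1500 ng with buffer or saline, among members that passed in any of them, class A receptors and ferritin subunits, and the 6 most like Scara5 by each measure. Same-numbered animals carry a different letter in each group and are different animals. The median correlation of their deviations lay between -0.07 and 0.10 over 12 comparisons, with single pairs from -0.51 to 0.82. The labels do not say whether a number marks a shared day or cage, and the main fit used no pairing. Ftl1, Trf, Timd2, Hamp, Ly6a, Cfd, Plin1 and Lep of the lists were not analysed here.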

Additional observations from a re-analysis of the deposited data

Results flagged for a closer look

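Of 40 groups of values tested for an array apart from its group (Scara5 and Adipoq in 20 groups each), 4 had one, and chance gives about 1 in 20. Scara5 in naive mice 6 h after 500 ng TSLP had a lowest array, replicate 8, at 6.64, where the next was at 8.70 and the median 9.61, and the same array had the lowest Adipoq of the series, 3.69. Adipoq had a highest array at 10.12 in OVA mice 6 h after 150 ng (next 8.18), a lowest at 8.23 in naive mice 24 h after 150 ng (next 10.06) and a lowest at 4.16 in naive saline mice at 6 h (next 7.83).

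For the 62 genes named by rule, the effect of 1500 ng TSLP against buffer at 24 h was compared between OVA and naive mice. Most of these genes were picked by small p or by likeness to Scara5, so no count of passes among them is given. In limma's interaction test of OVA minus naive, 2.5% of all genes were lower and 1.92% higher. The difference of effects was -1.39 for Dcn, -0.64 for Serpinf1, -4.18 for Adipoq, -2.29 for Cidec and -3.47 for Car3. No p is given for these, since Adipoq was chosen with Scara5 and the others stood out by likeness to it. It was -0.77 for Scara3 (adjusted p = 0.0472), -2.68 for Retn (adjusted p = 0.0106) and -3.07 for Clca1, a goblet cell gene (adjusted p = 0.0341). Scara3, Retn and Clca1 were named by small p over comparisons that include the OVA part of this difference. Their p values are not independent of that choice. For Scara5 the same difference of effects was -2.44 (SE 0.44), and -1.20 (SE 0.33) with Adipoq as a covariate, as a description.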

How the results depend on the processing

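The 49 Scara5 differences, of which 1 is the difference of effects between OVA and naive mice, moved by less than the SD of their groups under quantile normalization, without gullet keratin or high Adipoq arrays, with the beta-actin gap as a covariate, with medians (48 of them) and with each array left out. They did so with the replicate block too, where 1500 ng against buffer in OVA mice at 24 h was -2.20 (-2.33 to -2.02 with each array left out). With Adipoq as a covariate 8 moved further. That difference became -1.28, 500 ng against buffer in the same mice -0.70, naive 1500 ng against saline at 24 h -0.19, and 24 h against 6 h became 0.44 in OVA buffer, -0.14 in naive 1500 ng and -1.08 in OVA 1500 ng lungs. OVA against naive at 1500 ng and 24 h became -1.71, and the difference of effects -1.20. The yardstick was the SD of single arrays, and differences within it could still move by more than their SE. With the same covariate, 1500 ng against buffer in OVA mice at 6 h went from 0.72 (SE 0.30) to 0.24. OVA against naive with buffer at 6 h went from -1.48 (SE 0.33) to -0.90. Another Scara5 probe set could not be tried, since 1 names it.

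Counts of genes called at 1500 ng against buffer in naive mice at 6 h were 2071, and 3483 without gullet keratin arrays, 629 with the beta-actin gap and 20 in the 2-group fit. At 24 h they were 132, and 78, 44 and 60 under the same settings. Against saline in naive mice they were 5774 at 6 h, 764 with the gap, and 107 at 24 h, 40 in the 2-group fit. In OVA mice at 6 h they were 8194 against buffer, 1042 with the gap, and 8378 against saline, 2577 with the gap. OVA against naive with saline at 6 h gave 3176, and 2033 without the dimmest 40% of genes and 1670 in the 2-group fit. The cause was not tested, beyond the smaller number of genes or arrays.

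For 1500 ng against buffer in OVA mice at 24 h, Car3 (0.22), Plin4 (0.27) and Retn (0.01) turned in sign with Adipoq as a covariate, and Plin4 (0.01) without high Adipoq arrays. Of 33 named genes called there, 19 were still called without high Adipoq arrays, and 33 with the replicate block. Against saline 22 of 23 named genes called were still called with the block.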
